A study of Mus musculus with 58 samples.

Results

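The 10 genes described here are *Cldn5*, *Ocln*, *Tjp1*, *Slc2a1*, *Mfsd2a*, *Abcb1a*, *Slco1a4*, *Pecam1*, *Cdh5* and *Vwf*, genes of brain endothelial cells and of the barrier these cells form. They were chosen by name, and all 10 were present among the 15171 genes counted. RNA was sequenced from cortex and hippocampus of 58 mice on a C57BL/6 background, 28 females and 30 males, in 8 groups. Every mouse carried human *APOE3* or *APOE4* in place of the mouse gene (targeted replacement), and had either both functional copies of *Abca1* (E3/Abca1+/+, E4/Abca1+/+) or a single one (E3/Abca1+/-, E4/Abca1+/-). At 3 months of age, TBI mice had a craniotomy and a controlled cortical impact over the left parietal cortex, and sham mice had the craniotomy without the impact. Tissue was taken 14 days later, after perfusion with buffer. The groups held 8 sham and 8 TBI mice for E3/Abca1+/+, 7 and 6 for E3/Abca1+/-, 7 and 7 for E4/Abca1+/+, and 7 and 8 for E4/Abca1+/-. Cortex and hippocampus of a mouse were frozen together, so the regions cannot be separated, and every mouse, sham included, had open skull surgery.

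Brain endothelial cells line the vessels of the brain and, unlike those of most organs, seal the gaps between them with tight junctions and form few transport vesicles, so that nutrients enter through transporters and many drugs and toxins are pumped back into the blood. These properties are induced and kept by signals from surrounding cells, Wnt ligands among them, and are known to be disturbed after brain injury. In tissue homogenates such as these, fewer endothelial cells and less RNA per endothelial cell cannot be told apart.

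The 10 genes fall into 3 groups by role. *Cldn5* (claudin-5) and *Ocln* (occludin) are membrane proteins of the tight junction, and *Tjp1* (ZO-1) is the scaffold that ties them to the cytoskeleton. *Slc2a1* (GLUT1) carries glucose, *Mfsd2a* carries lysophospholipids and restrains vesicle transport, *Abcb1a* is a P-glycoprotein efflux pump, and *Slco1a4* (Oatp1a4) is an organic anion transporter. *Pecam1* (CD31) and *Cdh5* (VE-cadherin) are adhesion molecules of endothelial cells in general, and *Vwf* (von Willebrand factor) is stored and released by endothelium for platelet adhesion.

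On the mouse assembly GRCm38 (mm10), GENCODE vM21 places the junction genes *Cldn5* at chr16:18776847-18778262 (+ strand), *Ocln* at chr13:100496507-100552718 (- strand) and *Tjp1* at chr7:65296165-65527781 (- strand). The transporters *Slc2a1* and *Mfsd2a* lie at chr4:119108711-119137983 (+ strand) and chr4:122946850-122961188 (- strand), *Abcb1a* at chr5:8660077-8748575 (+ strand) and *Slco1a4* at chr6:141805440-141856199 (- strand). *Pecam1* lies at chr11:106654217-106750628 (- strand), *Cdh5* at chr8:104101625-104144511 (+ strand) and *Vwf* at chr6:125546774-125686679 (+ strand). An annotated gene on the opposite strand overlaps each of *Slc2a1* and *Abcb1a*, and since the strand setting of the counting is not given, reads of such a pair cannot be told apart. The 250 bases before the RefSeq start (GRCm38.p6) are printed for 4 genes: *Cldn5* and *Slco1a4*, which were higher after TBI, and *Slc2a1* and *Mfsd2a*, which varied together from mouse to mouse. The choice was limited by the windows used here, which covered 7 of the 10 genes and not *Pecam1*, *Cdh5* or *Vwf*, the gene with the largest injury estimate. The windows of *Tjp1* and *Abcb1a* began 156537 and 92986 bases from the gene start in GENCODE vM21 and are not printed. *Ocln*, which did not pass after TBI, is left out too. Sequences are written 5′ to 3′ on the strand of the gene, and capitals mark GC boxes (GGGCGG or its complement CCGCCC) and CCAAT boxes (CCAAT or its complement ATTGG).
Cldn5, chr16:18776597-18776846, + strand: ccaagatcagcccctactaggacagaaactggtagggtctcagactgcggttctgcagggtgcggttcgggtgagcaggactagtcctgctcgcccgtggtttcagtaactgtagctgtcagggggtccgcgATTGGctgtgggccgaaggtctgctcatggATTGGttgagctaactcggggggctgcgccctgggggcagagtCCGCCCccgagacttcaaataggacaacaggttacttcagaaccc
Slco1a4, chr6:141856221-141856470, - strand: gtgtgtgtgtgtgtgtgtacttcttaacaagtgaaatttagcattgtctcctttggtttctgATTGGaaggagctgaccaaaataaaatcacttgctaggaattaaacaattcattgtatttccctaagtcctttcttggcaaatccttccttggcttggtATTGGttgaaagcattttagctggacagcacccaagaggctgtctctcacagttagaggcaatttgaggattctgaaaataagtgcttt
Slc2a1, chr4:119108495-119108744, + strand: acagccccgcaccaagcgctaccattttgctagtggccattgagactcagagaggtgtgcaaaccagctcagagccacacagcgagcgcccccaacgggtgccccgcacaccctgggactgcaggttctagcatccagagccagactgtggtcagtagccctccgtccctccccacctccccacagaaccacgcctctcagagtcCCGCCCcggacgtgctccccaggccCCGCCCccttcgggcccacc
Mfsd2a, chr4:122961189-122961438, - strand: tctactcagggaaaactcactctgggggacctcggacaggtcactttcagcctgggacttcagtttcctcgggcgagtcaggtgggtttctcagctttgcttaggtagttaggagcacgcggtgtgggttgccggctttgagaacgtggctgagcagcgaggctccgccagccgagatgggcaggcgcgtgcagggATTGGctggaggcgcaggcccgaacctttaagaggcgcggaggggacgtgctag

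These windows differed in base composition. GC content was 59.6% for *Cldn5*, 66.4% for *Slc2a1* and 61.6% for *Mfsd2a* against a median of 52.0% over 27025 genes, whereas that of *Slco1a4* was 39.2%, with 0 CpG dinucleotides. *Cldn5* held 1 GC box and 2 CCAAT boxes, *Slco1a4* 2 CCAAT boxes, *Slc2a1* 2 GC boxes and *Mfsd2a* 1 CCAAT box. A GC box was found in 32.9% and a CCAAT box in 34.5% of the 27025 genes, taking 1 window of this length per gene. A TATAAA box, an ETS site (CCGGAAGT), a TCF/LEF site (ATCAAAG) and an E-box (CACGTG), searched on both strands, were in none of the 4 windows. They occur in 13%, 2.9%, 3.2% and 6.0% of the 27025 genes, counted in the same way.

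Levels are given in CPM, a gene's reads scaled to the size of its library. Total counts ranged from 4421308 to 37877346, and the least counted value of any of the 10 genes in a mouse was 42 reads, for *Cdh5*. *Abca1*, the targeted gene, averaged 48.5 and 45.6 CPM in E3/Abca1+/+ and E4/Abca1+/+ sham mice and 35.3 and 35.8 CPM in the corresponding Abca1+/- mice. In TBI mice these means were 170 and 156 CPM for Abca1+/+ and 104 and 138 CPM for Abca1+/-. The ranges overlapped in both isoforms, and the median was 121 CPM in E4/Abca1+/+ TBI and 130 CPM in E4/Abca1+/- TBI mice. The Abca1+/- libraries were the deeper ones (median 18871445.5 counts, n = 28, against 8350020.5, n = 30), so that *Abca1* copy number and depth cannot be told apart by group alone. Some libraries stood apart. Choroid plexus markers (6 genes, such as *Ttr*) were high in 15 libraries, 11 of females and 4 of males, 8 sham and 7 TBI. The unprocessed ribosomal RNA *Rn45s* took over 1% of counts in 7 libraries, 6 of them from females and 6 from E3/Abca1+/- mice. TBI mouse 8 of E3/Abca1+/+ had the highest level of fibroblast and meningeal markers. Results that change without these libraries are given with and without them.

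**Figure D1:**
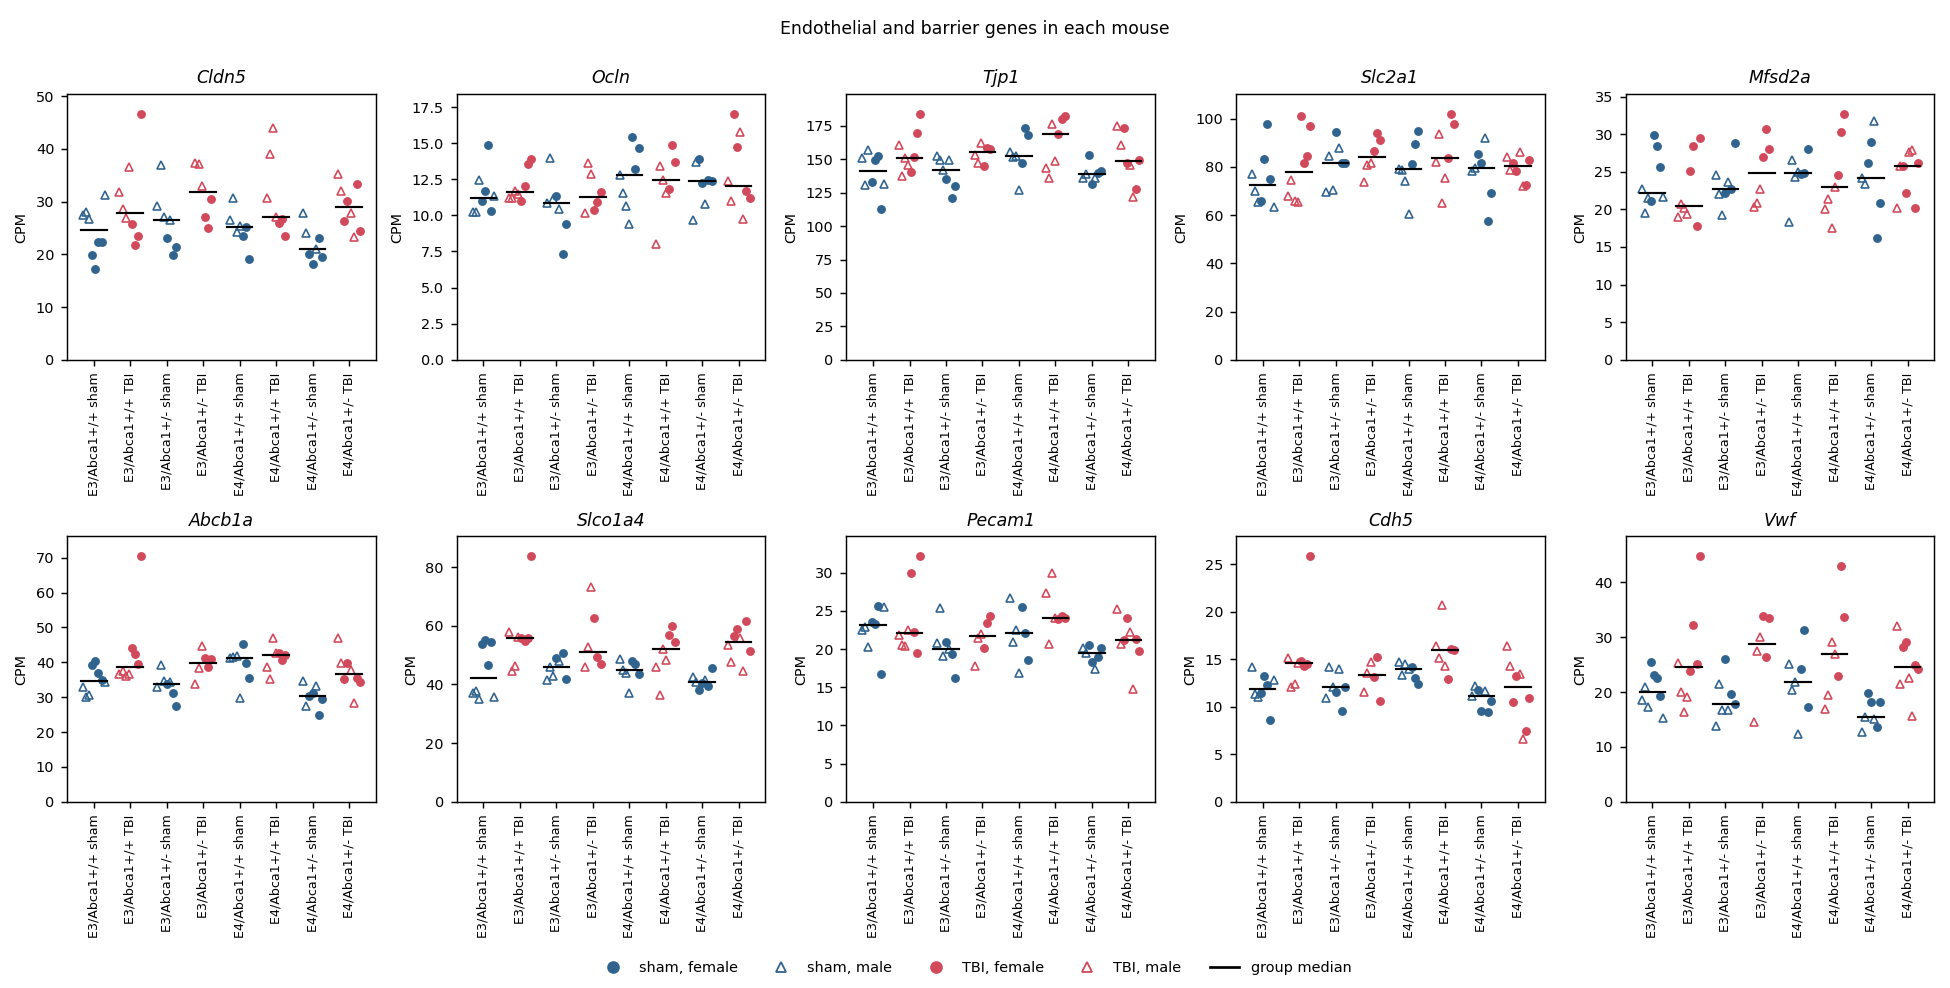
Level of each of the 10 genes (CPM, linear axis from 0) in every mouse of the 8 groups, with sham in blue, TBI in red, females as filled circles, males as open triangles and the group median as a black line. Sham and TBI mice overlap for every gene in every genotype, and a single E3/Abca1+/+ TBI female stands highest for *Cldn5*, *Tjp1*, *Abcb1a*, *Slco1a4*, *Cdh5*, *Vwf* and *Pecam1*.

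Per kilobase of exon, which allows genes to be compared, *Slc2a1*, *Tjp1* and *Cldn5* led and *Vwf* was lowest. *Slc2a1* averaged 24.6 ± 3.24 CPM per kb (SD, n = 58), *Tjp1* 21.0 ± 2.25 and *Cldn5* 19.4 ± 4.37. *Slco1a4* followed at 12.8 ± 2.37, *Mfsd2a* at 11.2 ± 1.83, *Abcb1a* at 7.48 ± 1.35 and *Pecam1* at 6.37 ± 0.99. *Cdh5* averaged 3.28 ± 0.73, *Ocln* 2.96 ± 0.47 and *Vwf* 2.58 ± 0.79 CPM per kb. *Slc2a1* exceeded 80.3% and *Vwf* 26.4% of the 14332 genes with an exon length. Neighbours in this order were often not separated within a mouse: *Tjp1* was above *Cldn5* in 39 of 58 mice, *Slco1a4* above *Mfsd2a* in 39, *Cdh5* above *Ocln* in 40 and *Ocln* above *Vwf* in 42. *Pecam1* was above *Cdh5* in all 58. *Tjp1* is also expressed by other brain cells, so its level is not endothelial alone.

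To ask whether injury altered these genes, TBI and sham mice were compared in all 58 mice, averaging the injury effect over the 4 genotypes. *Vwf*, *Cldn5*, *Slco1a4*, *Abcb1a*, *Cdh5*, *Pecam1* and *Tjp1* were higher after TBI, by 8.60% to 38.2%, and none of the 10 was lower. That is 7 of 10 genes past an adjusted p of 0.05 (edgeR's quasi-likelihood test, adjusted over all genes), where 29.0% of all genes tested were higher and 24.3% lower. *Slc2a1*, *Ocln* and *Mfsd2a* did not pass. The median log2 fold change of the 10 was 0.17, beside 0.01 for all genes. DESeq2's Wald test called 6 of the 7, without *Pecam1*.

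*Vwf* had the largest estimate of the 10. It ranged from 12.3 to 31.2 CPM (median 18.6) in the 29 sham mice and from 14.6 to 44.8 CPM (median 25.4) in the 29 TBI mice. TBI mice lay above the sham median in 25 of 29 cases, but only 7 were above the highest sham mouse. The log2 fold change was 0.47 (standard error, SE, 0.09, adjusted p = 1.95e-05, edgeR), a 1.38-fold difference with a 95% interval of 1.22 to 1.57.

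Of the junction genes, *Cldn5* moved most. Its level was 17.1 to 37.0 CPM (median 24.1) in sham mice and 21.7 to 46.6 CPM (median 28.6) in TBI mice. The ranges overlapped widely, with 5 TBI mice above every sham mouse. This was a log2 fold change of 0.32 (SE 0.07, adjusted p = 0.000112, edgeR). *Tjp1* rose less, from 113 to 173 CPM (median 142) in sham mice to 122 to 184 CPM (median 151) after TBI. Its log2 fold change was 0.12 (SE 0.04, adjusted p = 0.00467, edgeR), and it was lost without the libraries with choroid plexus markers (0.09, adjusted p = 0.0765) and without those high in *Rn45s* (0.08, adjusted p = 0.096). *Ocln*, the remaining junction gene, was at 7.32 to 15.5 CPM (median 11.4) in sham and 8.00 to 17.0 CPM (median 11.7) in TBI mice. Its log2 fold change of 0.06 had a 95% interval of -0.06 to 0.17, which ends below the *Cldn5* estimate.

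Among the transporters, the pump and the anion carrier rose and the nutrient carriers did not pass the test. *Slco1a4* was at 34.95 to 55.1 CPM (median 43.5) in sham mice and at 36.5 to 83.8 CPM (median 54.3) in TBI mice. It gave the clearest separation of the 10, with 28 of 29 TBI mice above the sham median and 13 above the highest sham mouse. TBI exceeded sham by 0.30 on the log2 scale (SE 0.05, adjusted p = 3.55e-06, edgeR). *Abcb1a* ranged from 24.9 to 45.3 CPM (median 34.2) in sham and from 28.3 to 70.4 CPM (median 39.5) in TBI mice. Here 27 of 29 TBI mice were above the sham median. On the log2 scale the difference was 0.23 (SE 0.05, adjusted p = 0.000115, edgeR). Its close relative *Abcb1b*, whose reads could in part be shared with it, had a median of 4.24 CPM. The mean of *Abcb1b* in sham and TBI mice was 3.565 and 5.148 CPM in E3/Abca1+/+ and 3.355 and 4.747 CPM in E3/Abca1+/- mice. In E4/Abca1+/+ mice it was 3.767 and 4.992 CPM, and in E4/Abca1+/- mice 3.758 and 5.744 CPM. The part of shared reads in the difference of *Abcb1a* was not tested.

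*Slc2a1* was at 57.7 to 97.98 CPM (median 79.0) in sham mice and at 65.0 to 102 CPM (median 81.8) in TBI mice, and *Mfsd2a* at 16.2 to 31.7 CPM (median 24.2) and 17.5 to 32.7 CPM (median 23.0). The groups overlapped almost completely for both. The log2 fold change of *Slc2a1* was 0.07 (95% interval -0.03 to 0.17, adjusted p = 0.243) and that of *Mfsd2a* 0.00 (95% interval -0.12 to 0.13, adjusted p = 0.981).

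The adhesion genes *Pecam1* and *Cdh5* differed in how firmly they moved. *Cdh5* was at 8.59 to 14.7 CPM (median 12.1) in sham and at 6.65 to 25.9 CPM (median 14.3) in TBI mice, which held both the lowest and the highest values, and 10 TBI mice were above every sham mouse. Its log2 fold change was 0.21 (SE 0.07, adjusted p = 0.00631, edgeR). It was not called after thinning all libraries to the same depth (0.17, adjusted p = 0.0594), nor without the libraries high in *Rn45s* (0.16, adjusted p = 0.0896). *Pecam1* was at 16.2 to 26.7 CPM (median 20.5) in sham and at 14.8 to 32.2 CPM (median 22.2) in TBI mice. Its log2 fold change of 0.12 (SE 0.05, adjusted p = 0.045, edgeR) stayed past the threshold in only 25 of the 58 fits that left out 1 mouse, with an adjusted p of up to 0.109, and was lost without the female TBI mouse 8 of E3/Abca1+/+, without the libraries with choroid plexus markers (0.12, adjusted p = 0.113) and without those high in *Rn45s* (0.04, adjusted p = 0.578). The other 6 calls were kept in all 58 of those fits.

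**Figure D2:**
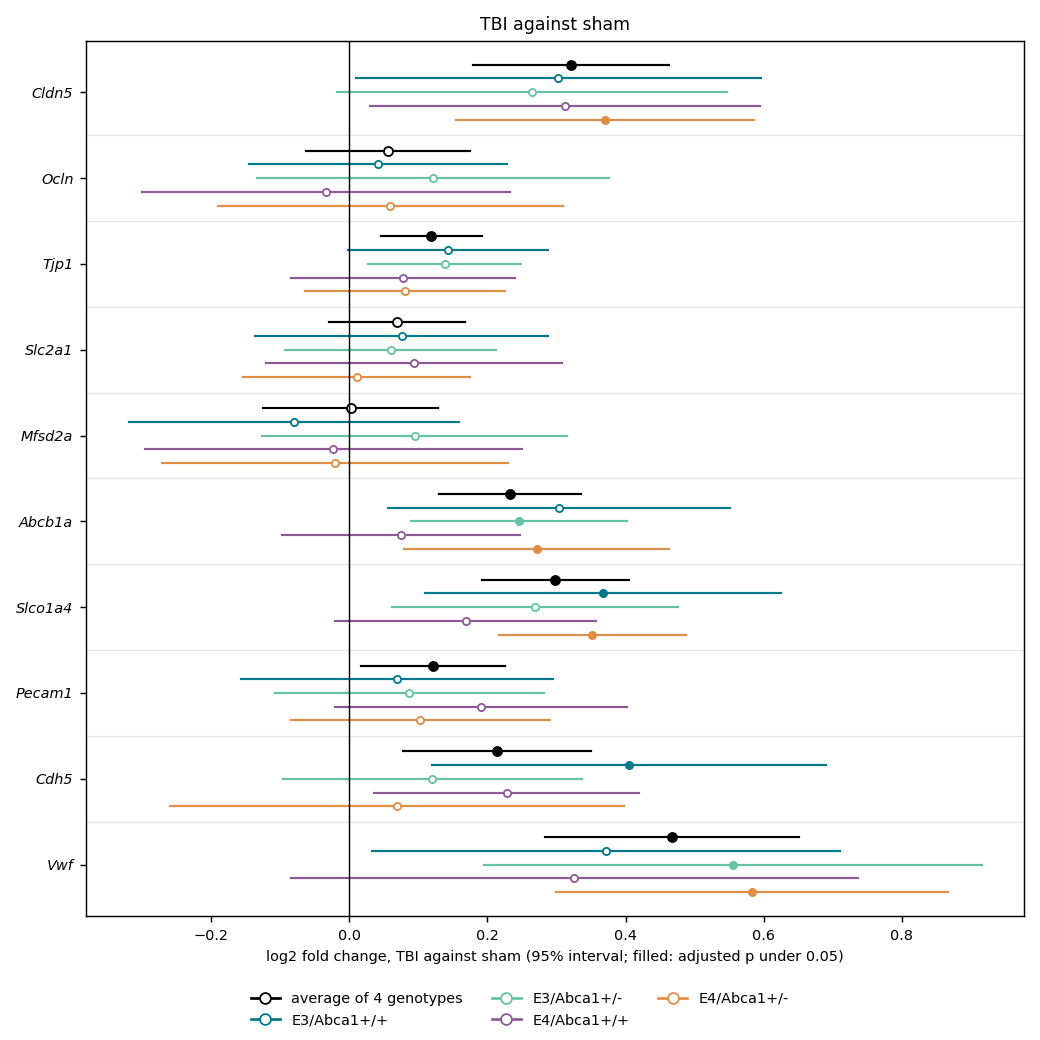
Log2 fold change of each gene between TBI and sham mice with its 95% interval, as the average over 4 genotypes (black) and within each genotype (colours), with filled points past an adjusted p of 0.05. The average is furthest from 0 for *Vwf* (0.47), and the intervals of the 4 genotypes overlap for every gene.

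Within single genotypes fewer of the genes passed. In E3/Abca1+/+ mice 2 of 10 were higher after TBI (*Slco1a4*, *Cdh5*), where 12.3% of all genes tested were higher, and in E3/Abca1+/- mice 2 (*Abcb1a*, *Vwf*), where 13.4% were. In E4/Abca1+/+ mice 0 of 10 passed, with 8.82% of all genes higher. At an unadjusted p under 0.05 there were 2 (*Cldn5*, *Cdh5*), where 26.8% of all genes were in either direction, and DESeq2 called 0. In E4/Abca1+/- mice 4 of 10 passed (*Cldn5*, *Abcb1a*, *Slco1a4*, *Vwf*), where 17.7% of all genes were higher.

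*Vwf* had the largest estimate of the 10 genes in every genotype but E3/Abca1+/+. It was at 12.7 to 19.8 CPM (median 15.4, n = 7) in E4/Abca1+/- sham and at 15.6 to 31.97 CPM (median 24.6, n = 8) in E4/Abca1+/- TBI mice, a log2 fold change of 0.58 (SE 0.13, adjusted p = 0.00272, edgeR). In E3/Abca1+/- mice it was at 13.8 to 26.0 CPM (median 17.8, n = 7) in sham and 14.6 to 33.9 CPM (median 28.8, n = 6) in TBI, a log2 fold change of 0.56 (SE 0.17, adjusted p = 0.0256, edgeR). The groups overlapped in both genotypes. The estimates in E3/Abca1+/+ and E4/Abca1+/+ mice, 0.37 and 0.33, did not pass (adjusted p = 0.105 and 0.309, edgeR).

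*Slco1a4* was at 38.1 to 45.7 CPM (median 40.7, n = 7) in E4/Abca1+/- sham and 44.5 to 61.5 CPM (median 54.6, n = 8) in E4/Abca1+/- TBI mice. Of the 8 TBI mice 7 were above the highest sham mouse, and the log2 fold change was 0.35 (SE 0.06, adjusted p = 0.000409, edgeR). In E3/Abca1+/+ mice it was at 34.95 to 55.1 CPM (median 42.2, n = 8) in sham and 44.5 to 83.8 CPM (median 55.9, n = 8) in TBI. The log2 fold change was 0.37 (SE 0.12, adjusted p = 0.0356, edgeR). The estimates in E3/Abca1+/- and E4/Abca1+/+ mice, 0.27 and 0.17, did not pass (adjusted p = 0.0572 and 0.242, edgeR).

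*Cldn5* had similar estimates in the 4 genotypes but passed in 1. In E4/Abca1+/- mice it was at 18.2 to 27.9 CPM (median 21.0, n = 7) in sham and 23.3 to 35.3 CPM (median 29.0, n = 8) in TBI. The groups overlapped, and the log2 fold change was 0.37 (SE 0.10, adjusted p = 0.00931, edgeR). In E3/Abca1+/+, E3/Abca1+/- and E4/Abca1+/+ mice the log2 fold changes were 0.30, 0.26 and 0.31 (adjusted p = 0.128, 0.176 and 0.140, edgeR).

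*Abcb1a* passed in the Abca1+/- mice of either isoform and *Cdh5* in E3/Abca1+/+ mice. *Abcb1a* was at 27.5 to 39.1 CPM (median 33.6, n = 7) in E3/Abca1+/- sham and 33.9 to 44.7 CPM (median 39.7, n = 6) in E3/Abca1+/- TBI mice, which overlapped. Its log2 fold changes were 0.25 in E3/Abca1+/- (adjusted p = 0.0234) and 0.27 in E4/Abca1+/- mice (adjusted p = 0.028), and 0.30 and 0.08 in E3/Abca1+/+ and E4/Abca1+/+ mice (adjusted p = 0.0703 and 0.612, edgeR). *Cdh5* was at 8.59 to 14.2 CPM (median 11.9, n = 8) in E3/Abca1+/+ sham and 12.1 to 25.9 CPM (median 14.6, n = 8) in E3/Abca1+/+ TBI mice, with a log2 fold change of 0.41 (SE 0.14, adjusted p = 0.036, edgeR). In E3/Abca1+/-, E4/Abca1+/+ and E4/Abca1+/- mice it was 0.12, 0.23 and 0.07 (adjusted p = 0.454, 0.112 and 0.776, edgeR).

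Several of these calls were lost when 1 mouse was left out, in part with little change in the estimate. The log2 fold change stayed between 0.49 and 0.69 for *Vwf* in E3/Abca1+/- mice, and between 0.22 and 0.33 for *Abcb1a* in E4/Abca1+/- mice. Without TBI mouse 8 of E3/Abca1+/+, 0 of the 10 genes passed there, the log2 fold change of *Slco1a4* being 0.27 and that of *Cdh5* 0.26. *Slco1a4* was likewise lost in this genotype without sham mouse 1, 2, 3 or 8 or TBI mouse 4, and *Cdh5* without sham mouse 2, 3, 4 or 7. In E3/Abca1+/- mice, *Abcb1a* was lost without TBI mouse 3, and *Vwf* without sham mouse 1, 3 or 5 or TBI mouse 3, 4 or 6. *Rn45s* took a median of 2.17% of counts in E3/Abca1+/- TBI and 0.223% in E3/Abca1+/- sham mice. Without the libraries over 1%, which left 5 sham and 2 TBI mice, 0 genes passed there, with log2 fold changes of 0.05 for *Abcb1a* (adjusted p = 0.83) and 0.16 for *Vwf* (adjusted p = 0.818, edgeR). The part of *Rn45s* in this loss and that of the smaller number of mice cannot be told apart. In the same genotype *Cldn5* passed without sham mouse 2, *Tjp1* without sham mouse 1 or 2, and *Slco1a4* without sham mouse 6 or TBI mouse 1, 5 or 6. In E4/Abca1+/- mice *Cldn5*, *Slco1a4* and *Vwf* passed whichever mouse was left out, *Abcb1a* was lost without sham mouse 2, 6 or 7 or TBI mouse 1, 2 or 4, and *Pecam1* passed without TBI mouse 6. *Abcb1a* and *Vwf* in E3/Abca1+/+ mice passed without TBI mouse 1 and TBI mouse 3, and *Slco1a4* in E4/Abca1+/+ mice without TBI mouse 2. Without the libraries with choroid plexus markers, 0 genes passed in E4/Abca1+/- mice, where 4 sham and 5 TBI mice remained. *Vwf* and *Cldn5* were then at 0.56 and 0.39 (adjusted p = 0.069 and 0.104, edgeR). *Slco1a4* and *Abcb1a* were at 0.23 and 0.20 (adjusted p = 0.079 and 0.321, edgeR), below the 0.35 and 0.27 with all mice. The estimate of *Vwf* in this genotype stayed between 0.49 and 0.62 in the 13 alternatives.

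A gene past the threshold in one genotype only need not differ between genotypes, and the differences were tested. The injury effect differed by *Abca1* copy number for 0 of the 10 genes in *APOE3* mice and 0 in *APOE4* mice, and by isoform for 0 in Abca1+/+ and 0 in Abca1+/- mice. In all 4 tests 0.0% of all genes passed, and 0 of the 10 had an unadjusted p under 0.05, where 2.12%, 4.85%, 2.11% and 6.34% of all genes did. DESeq2 called 0 of the 10 in each. The largest difference was for *Cdh5* in *APOE3* mice, -0.30 on the log2 scale (95% interval -0.66 to 0.07). For *Vwf* in *APOE4* mice the injury effect differed by 0.27 (95% interval -0.23 to 0.78) between Abca1+/- and Abca1+/+ mice. Intervals of this width do not show that the genotypes responded alike.

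The same comparison was made for other genes of the vessel wall, to place the 10 genes beside their partners. Each count of a list stands against the 29.0% of all genes tested that were higher and the 24.3% that were lower. Of 14 further barrier transporters, 9 were higher and 2 lower after TBI. *Slco2b1*, another organic anion transporter, rose with a log2 fold change of 0.80 (adjusted p = 3.64e-23, edgeR), and *Slc16a1* (MCT1, a monocarboxylate carrier) with 0.65 (adjusted p = 1.99e-14). Of 10 further junction genes 5 were higher and 1 lower. *F11r* (JAM-A) rose by 0.86 (adjusted p = 2.93e-17) and *Cldn12* fell by 0.10 (adjusted p = 0.0012). The median log2 fold changes of these lists were 0.21 and 0.15, beside 0.17 for the 10 genes. Microglia markers (6 genes) summed to 262.5 to 391 CPM (median 300) in sham and 473.5 to 998 CPM (median 624) in TBI mice. The part of microglia in the rise of *Slco2b1* and *F11r* was not tested.

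Of 21 genes of endothelial identity, 7 were higher and 1 lower, with a median log2 fold change of 0.09. *Fli1*, an ETS transcription factor that microglia and blood cells also express, rose with a log2 fold change of 0.74 (adjusted p = 2.11e-11), and *Cd34*, a sialomucin that is not confined to endothelium, fell by 0.45 (adjusted p = 1.4e-11). The summed level of the 21 genes was 343 to 439 CPM (median 381) in sham and 328 to 514 CPM (median 379) in TBI mice, so it overlapped throughout. Of 16 genes of Wnt signalling to the barrier 13 were higher and 0 lower, with *Apcdd1* at 0.45 (adjusted p = 1.48e-10) and *Lrp5*, a co-receptor, at 0.50 (adjusted p = 7.89e-09). *Ndp* (norrin), at 0.57 (adjusted p = 2.84e-10), and *Wnt7b*, at 0.31 (adjusted p = 1.47e-07), are ligands made mainly by glia and neurons.

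The genes of activated endothelium had the largest changes of the vascular lists. Of 10 tested, 8 were higher and 0 lower, with a median log2 fold change of 0.42. *Icam1*, an adhesion molecule for leukocytes, rose from a mean of 2.89 CPM in sham to 11.7 CPM in TBI mice (log2 fold change 1.998, standard error 0.13, adjusted p = 1.61e-19, edgeR). *Vcam1* rose with a log2 fold change of 1.01 (adjusted p = 2.86e-16, edgeR). *Icam1* and *Vcam1* are also made by glia. *Sele* and *Selp*, the selectins on the same list, were not analysed here.

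Markers of neighbouring cells moved too. Of 11 mural cell markers 5 were higher, among them *Anpep* (1.02, adjusted p = 5.57e-10) and *Pdgfrb* (0.28, adjusted p = 6.63e-05), and of 6 fibroblast and meningeal markers 5, with *Col1a1* at 0.90 (adjusted p = 1.7e-06). The summed fibroblast markers ranged from 77.4 to 156 CPM (median 111) in sham and from 48.9 to 352 CPM (median 172) in TBI mice. All 6 astrocyte and all 6 microglia markers were higher, and 5 of 6 neuron markers lower. The 3 tested platelet markers summed to 5.42 to 10.4 CPM (median 7.83) in sham and 6.64 to 12.9 CPM (median 9.19) in TBI mice, with *Pf4* higher (1.00, adjusted p = 5.83e-06). Red cell markers summed to at most 10.6 CPM. Of 6 choroid plexus markers 0 passed, and they summed to 10.3 to 1321 CPM (median 20.6) in sham and 10.3 to 2024 CPM (median 20.6) in TBI mice. Of 6 oligodendrocyte markers 3 were higher, of 6 hippocampal markers 1 was higher and 2 lower, and of 3 red cell markers 1 was lower. The part of these cell types in the differences of the 10 genes and of the other vascular lists was not tested.

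**Figure D3:**
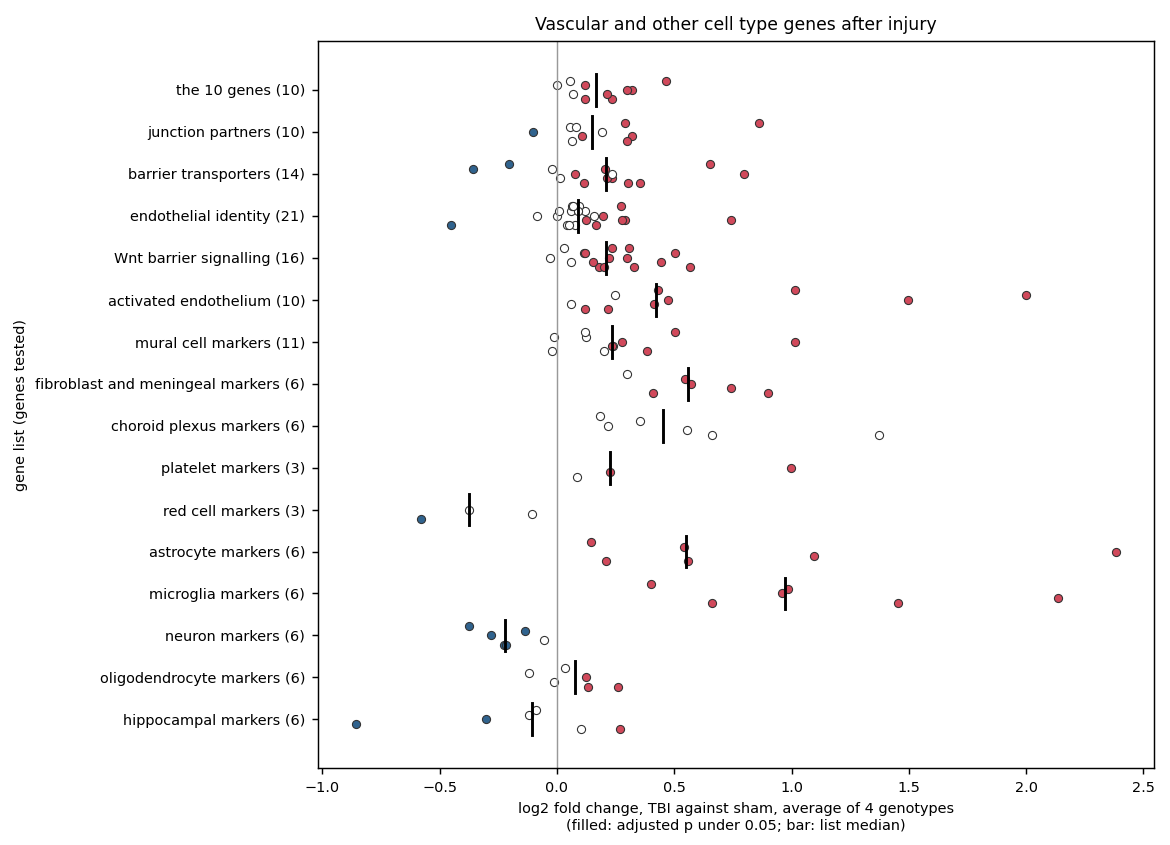
Log2 fold change between TBI and sham mice, averaged over 4 genotypes, for the 10 genes and for 15 other lists of vascular and cell type genes, with each point a gene, filled where the adjusted p is under 0.05, and a bar at the list median. The 10 genes have a median of 0.17, between the endothelial identity genes (0.09) and the activated endothelium genes (0.42).

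Set against the mean log2(CPM + 1) of the 21 endothelial identity genes in the same mouse, the 10 genes separated. The TBI mean minus the sham mean of this relative level, as a description, was 0.33 for *Vwf* (within-group SD 0.31), 0.22 for *Cldn5* (SD 0.23), 0.19 for *Slco1a4* (SD 0.19) and 0.13 for *Abcb1a* (SD 0.14). It was 0.08 for *Cdh5*, 0.03 for *Tjp1*, 0.02 for *Pecam1*, -0.02 for *Slc2a1*, -0.03 for *Ocln* and -0.10 for *Mfsd2a*. *Pecam1* and *Cdh5*, the general endothelial genes, lay near the identity list, but so did *Tjp1*, *Slc2a1* and *Ocln*, and *Vwf* was furthest from it. The sizes are relative to a list in which *Cd34* fell.

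Every group held both sexes, and females and males were compared over all 58 mice with the 8 groups as a term. In the Abca1+/+ mice of each isoform, the mouse numbers in the sample titles did not interleave between the sexes. What these numbers follow is not given, so sex cannot be told apart from it in those mice. Choroid plexus markers averaged up to 1.57 in the 16 Abca1+/+ males and up to 5.22 in the 14 females (log2(CPM + 1)). The median share of *Rn45s* was 0.442% and 0.109%. Of the 10 genes 5 differed between females and males, where 10.1% of all genes tested did. *Vwf*, *Mfsd2a*, *Slco1a4* and *Slc2a1* were higher in females and *Cldn5* was lower. DESeq2 called 5 of 10 as well. Of the 21 endothelial identity genes 0 differed by edgeR, with a median log2 difference of -0.02.

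*Cldn5* was lower in females in each of the 8 groups by group mean. It was at 17.1 to 46.6 CPM (median 23.4) in the 28 females and at 21.0 to 44.0 CPM (median 28.4) in the 30 males, so that the ranges overlapped, but in 4 of the 8 groups every female was below every male. The groups held only 3 or 4 mice of each sex, and how often other genes separate in this way was not counted. The log2 difference, female against male, was -0.30 (SE 0.06, adjusted p = 0.00123, edgeR). *Vwf* went the other way in all 8 groups. It was at 13.7 to 44.8 CPM (median 24.6) in females and 12.3 to 31.97 CPM (median 19.3) in males, a log2 difference of 0.36 (SE 0.08, adjusted p = 0.00273, edgeR). In no group were all females above all males. Beside these log2 differences of 0.36 and -0.30 between the sexes stand 0.47 and 0.32 for TBI against sham.

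The transporters were less uniform. *Slc2a1* was at 57.7 to 102 CPM (median 83.5) in females and 60.3 to 93.5 CPM (median 76.3) in males, with a log2 difference of 0.16 (SE 0.04, adjusted p = 0.0159, edgeR). *Mfsd2a* was at 16.2 to 32.7 CPM (median 25.9) and 17.5 to 31.7 CPM (median 21.8), with 0.19 (SE 0.06, adjusted p = 0.0347, edgeR). Both were higher in females by group mean in 6 of 8 groups, and lower in the 2 groups of E4/Abca1+/- mice. *Slco1a4*, at 38.1 to 83.8 CPM (median 52.7) in females and 34.95 to 73.2 CPM (median 45.4) in males, gave a log2 difference of 0.17 (SE 0.05, adjusted p = 0.0213, edgeR), also with 6 of 8 groups. *Ocln*, *Tjp1*, *Abcb1a*, *Pecam1* and *Cdh5* had log2 differences of 0.09, 0.03, 0.05, 0.03 and -0.08, and did not pass. Every female was above every male in 3 groups for *Slc2a1*, in 2 each for *Mfsd2a*, *Abcb1a* and *Slco1a4*, and in 1 for *Ocln*. For *Tjp1* every female was below every male in 1 group.

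**Figure D4:**
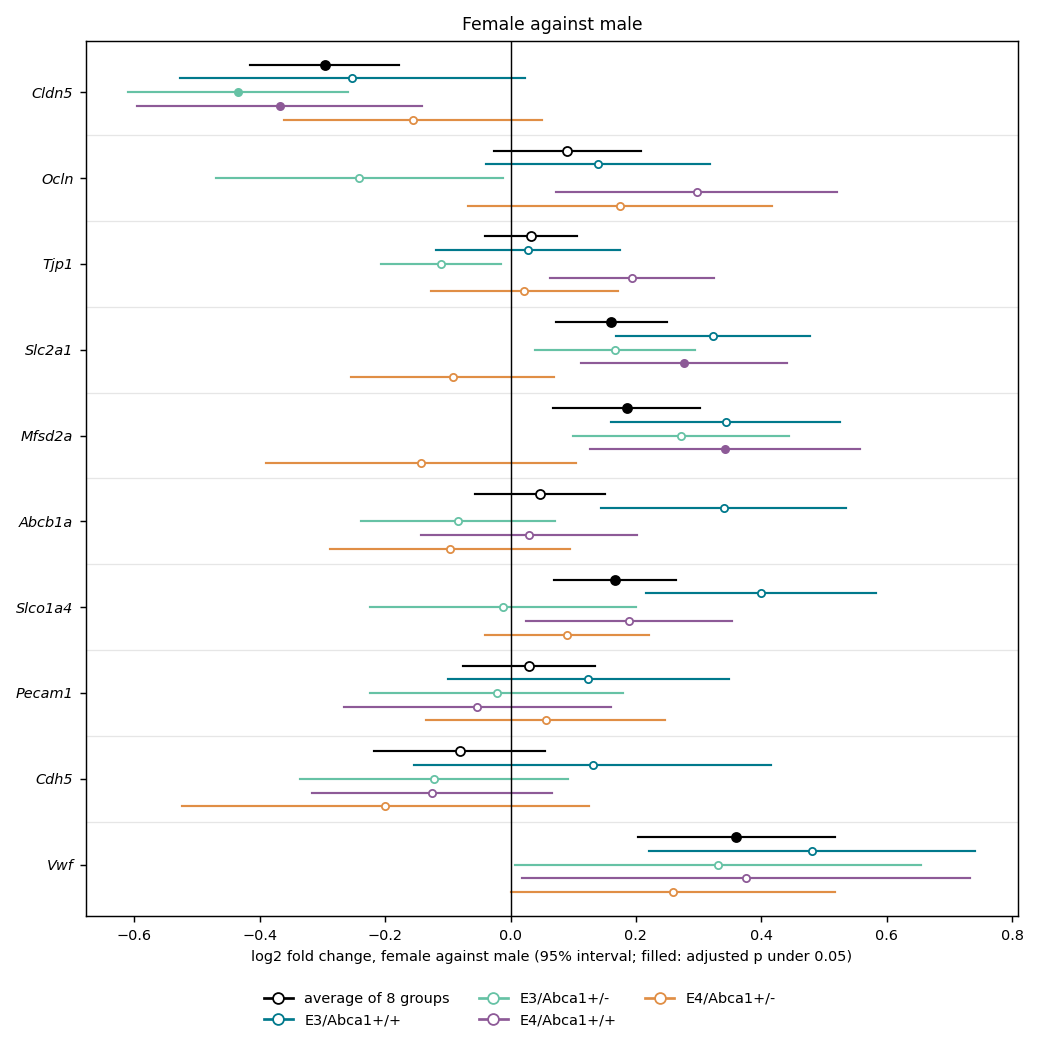
Log2 fold change of each gene between female and male mice with its 95% interval, as the average over 8 groups (black) and within each genotype (colours), with filled points past an adjusted p of 0.05. *Cldn5* lies below 0 and *Vwf* above 0 in all 4 genotypes, and *Slc2a1* and *Mfsd2a* lie below 0 only in E4/Abca1+/- mice.

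Libraries of females had fewer counts (median 12115260.5 against 16059756.5) and carried choroid plexus markers more often, in 11 of 28 against 4 of 30. Without those 15 libraries the same 5 genes passed, with *Cldn5* at -0.30 (adjusted p = 0.0303) and *Vwf* at 0.46 (adjusted p = 0.00424, edgeR). Without the libraries high in *Rn45s*, *Mfsd2a* was lost (0.14, adjusted p = 0.20), and after thinning to equal depth *Slco1a4* was lost (0.16, adjusted p = 0.0568) and *Ocln* passed (0.20, adjusted p = 0.0199). *Cldn5*, *Slc2a1* and *Vwf* passed in all 11 alternatives.

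Within genotypes, a comparison added after these values were seen, *Cldn5* was lower in females of E3/Abca1+/- (-0.43, adjusted p = 0.0102) and E4/Abca1+/+ mice (-0.37, adjusted p = 0.0403), and *Slc2a1* and *Mfsd2a* were higher in females of E4/Abca1+/+ mice (0.28 and 0.34, adjusted p = 0.0329 and 0.0438, edgeR). In E3/Abca1+/- mice sex went with *Rn45s*, which took a median of 2.17% of counts in the 6 females and 0.174% in the 7 males. Without the libraries over 1%, which left 1 female and 6 males there, *Cldn5* was at -0.36 (adjusted p = 0.651, edgeR). In E4/Abca1+/+ mice, where this took out 1 female of 6, *Cldn5*, *Slc2a1* and *Mfsd2a* were at -0.33, 0.25 and 0.34 (adjusted p = 0.0888, 0.0826 and 0.0758, edgeR), so 0 of the 4 calls remained. Choroid plexus markers went with sex in E4/Abca1+/+ mice, and leaving those libraries out kept 2 females of 6 and 8 males of 8. *Cldn5*, *Slc2a1* and *Mfsd2a* were then at -0.34, 0.30 and 0.40 (adjusted p = 0.40, 0.255 and 0.244, edgeR), so these calls were lost. In the same setting *Cldn5* still passed in E3/Abca1+/- mice (-0.45, adjusted p = 0.0186) and *Mfsd2a* passed in E3/Abca1+/+ mice (0.40, adjusted p = 0.0291, edgeR). In E3/Abca1+/+ mice *Cldn5* passed without TBI mouse 8 (-0.43, adjusted p = 0.0088, edgeR, against -0.25 and 0.531 with it). In E3/Abca1+/+ and E4/Abca1+/- mice 0 of 10 passed, with 5 and 1 at an unadjusted p under 0.05, where 10.5% and 10.2% of all genes were, and 4 and 0 by DESeq2. The share of all genes called was 0.192% in E3/Abca1+/+, 2.95% in E3/Abca1+/-, 9.24% in E4/Abca1+/+ and 0.0729% in E4/Abca1+/- mice. Whether the sex difference depended on *Abca1* copy number was tested within each isoform, and 0 of 10 genes passed in *APOE3* mice, with 0.431% of all genes, and 0 in *APOE4* mice, with 0.0%. At an unadjusted p under 0.05 there were 3 (*Ocln*, *Abcb1a*, *Slco1a4*) and 2 (*Slc2a1*, *Mfsd2a*), where 10.5% and 12.9% of all genes were, and DESeq2 called 0. In *APOE4* mice the female against male difference of *Mfsd2a* was lower in Abca1+/- than in Abca1+/+ mice by -0.48 on the log2 scale (95% interval -0.82 to -0.14, adjusted p = 0.223, edgeR).

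The injury effect itself did not pass a test of a difference between the sexes for any of the 10 genes. With edgeR 0 of 10 passed, 0 had an unadjusted p under 0.05, where 7.47% of all genes did, DESeq2 called 0, and 0.0% of all genes passed. All 10 estimates were positive, from 0.00 for *Slco1a4* to 0.19 for *Mfsd2a* (95% interval -0.05 to 0.42).

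To examine *Abca1* copy number, Abca1+/- and Abca1+/+ mice were compared over isoform and injury. *Abcb1a*, *Pecam1* and *Cdh5* were lower in Abca1+/- mice and 0 of the 10 were higher, where 8.39% of all genes tested were lower and 9.49% higher. The log2 differences were -0.18 for *Abcb1a* (SE 0.05, adjusted p = 0.0108), -0.18 for *Pecam1* (SE 0.05, adjusted p = 0.012) and -0.25 for *Cdh5* (SE 0.07, adjusted p = 0.0075, edgeR). *Abcb1a* was lost after thinning every library to 4421308 counts (-0.16, adjusted p = 0.0514) and without the libraries with choroid plexus markers (-0.16, adjusted p = 0.0894), with estimates close to the one above, whereas *Pecam1* and *Cdh5* passed in all 12 alternatives. The libraries of the genotypes also differed in the share of mitochondrial genes, with a median of 3.64% in Abca1+/+ and 3.07% in Abca1+/- mice. None of the alternatives adjusted for that share, so it cannot be told apart from copy number. Of the 21 endothelial identity genes 3 were lower and 0 higher, and of the 11 mural cell markers 3 were lower.

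Within isoform and injury status 2 of these 3 genes passed, in *APOE4* sham mice, where 0.617% of all genes tested were lower. *Abcb1a* was at 29.6 to 45.3 CPM (median 41.3, n = 7) in E4/Abca1+/+ sham and 24.9 to 34.5 CPM (median 30.4, n = 7) in E4/Abca1+/- sham mice. The groups overlapped, and the log2 difference was -0.37 (SE 0.08, adjusted p = 0.041, edgeR). *Cdh5* was at 12.4 to 14.7 CPM (median 14.0) and 9.45 to 12.2 CPM (median 11.2) in the same mice, where every Abca1+/- mouse was below every Abca1+/+ mouse. The log2 difference was -0.32 (SE 0.07, adjusted p = 0.0458, edgeR). The 11 mural cell markers summed to 167 to 237 CPM (median 189.9) in E4/Abca1+/+ sham and 142 to 176 CPM (median 158) in E4/Abca1+/- sham mice, and the 21 endothelial identity genes to 349 to 439 CPM (median 408) and 343 to 381 CPM (median 375). Their part in the differences of *Abcb1a* and *Cdh5* was not tested. The libraries of these groups did not overlap in total counts, at 4695676 to 14064531 in E4/Abca1+/+ sham and 18311106 to 28467098 in E4/Abca1+/- sham mice. Nor did they overlap in the share of mitochondrial genes, at 3.61% to 4.32% and 2.62% to 3.26%. These library differences cannot be told apart from *Abca1* copy number by group.

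Both calls were lost after thinning, with *Abcb1a* at -0.33 (adjusted p = 0.0983) and *Cdh5* at -0.34 (adjusted p = 0.171), and without the libraries with choroid plexus markers, with *Abcb1a* at -0.28 (adjusted p = 0.242) and *Cdh5* at -0.36 (adjusted p = 0.137, edgeR). Both were also lost in a single fit of all mice, in which *Cdh5* passed in *APOE4* TBI mice (-0.45, adjusted p = 0.0242, edgeR). *Cdh5* was lost without the libraries high in *Rn45s* (-0.34, adjusted p = 0.0528, edgeR), and *Abcb1a* without sham mouse 2 of E4/Abca1+/-, the sham library highest in microglia markers (-0.35, adjusted p = 0.086, edgeR). In *APOE3* sham, *APOE3* TBI and *APOE4* TBI mice 0 of 10 passed, with 0, 0 and 2 at an unadjusted p under 0.05, where 16.7%, 9.07% and 18.4% of all genes were, and 0 by DESeq2 in each. The share of all genes called there was 2.51%, 0.18% and 1.47%. In *APOE4* TBI mice *Cdh5* was at 12.9 to 20.7 CPM (median 16.01, n = 7) in E4/Abca1+/+ and at 6.65 to 16.3 CPM (median 12.1, n = 8) in E4/Abca1+/- mice, a log2 difference of -0.47 (95% interval -0.82 to -0.12, adjusted p = 0.141, edgeR).

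*APOE4* and *APOE3* mice did not differ past the threshold for any of the 10 genes. Averaged over *Abca1* and injury, where 15.0% of all genes tested differed, edgeR called 0 of 10, DESeq2 called 0, and *Ocln* alone had an unadjusted p under 0.05, where 28.2% of all genes did (log2 difference 0.12, 95% interval 0.00 to 0.24, adjusted p = 0.17). *Ocln* was at 9.43 to 15.5 CPM (median 12.8, n = 7) in E4/Abca1+/+ and 10.2 to 14.9 CPM (median 11.2, n = 8) in E3/Abca1+/+ sham mice, which overlapped. The other 9 genes had log2 differences from -0.09 for *Slco1a4* to 0.05 for *Mfsd2a*. The 95% intervals of the 10 genes ran from -0.23 to 0.24.

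Within *Abca1* genotype and injury status 0 of 10 passed in all 4 comparisons of isoform, where 0.346% and 0.207% of all genes differed in Abca1+/+ sham and TBI mice and 5.27% and 2.87% in Abca1+/- sham and TBI mice. In sham mice, 2 of the 10 had an unadjusted p under 0.05 in each *Abca1* genotype, where 8.89% of all genes did in Abca1+/+ and 23.4% in Abca1+/- mice. They were *Abcb1a* and *Cdh5* in Abca1+/+ mice, higher with *APOE4* (0.19 and 0.23), and *Cldn5* and *Slco1a4* in Abca1+/- mice, lower with *APOE4* (-0.26 and -0.15). In TBI mice there were 0, where 7.21% and 18.7% of all genes were, and DESeq2 called 0 in each of the 4.

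The 10 genes did not vary as a single block from mouse to mouse. Each gene's log2(CPM + 1) was taken as a deviation from its group mean, and correlated between genes over the 58 mice, so that all pairs share the same libraries and their differences in depth. Of 45 pairs 40 were positive, with a median r of 0.32. The highest were *Abcb1a* with *Pecam1* (r = 0.71), *Slco1a4* with *Vwf* (r = 0.66) and *Slc2a1* with *Mfsd2a* (r = 0.65). *Cldn5* ran against the nutrient transporters, with r = -0.45 to *Mfsd2a* and -0.29 to *Slc2a1*. TBI mouse 8 of E3/Abca1+/+, the library highest in fibroblast and meningeal markers, entered these values, and over the other 57 mice, a setting chosen after seeing the data, 39 pairs were positive with a median r of 0.25. The 3 highest pairs were then at 0.67, 0.60 and 0.63, *Cldn5* was at -0.60 to *Mfsd2a* and -0.41 to *Slc2a1*, and *Slco1a4* with *Cdh5* moved from 0.25 to 0.08. The deviations keep the sex difference described above, in which *Cldn5* was opposite to both.

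*Abcb1a* was the gene most like the rest, with r = 0.81 to the mean of the other 9, and *Cldn5* the least, with r = 0.05, followed by *Mfsd2a* with 0.19. Without TBI mouse 8 of E3/Abca1+/+ these were 0.73, -0.16 and 0.06. Among the genes outside the 10 whose deviations were closest to the mean of the 10 were *Arhgap29* (r = 0.83), *Wasf2*, *Ddr2*, *Myo6*, *Adgrf5*, *Aff1*, *Timp3*, *Sft2d2* and *Itih5* (r = 0.80). The closest single gene was *Ptprb*, the endothelial receptor phosphatase VE-PTP, for *Vwf* (r = 0.81), *Thbd* (thrombomodulin) for *Cdh5* (r = 0.78), *Podxl* for *Pecam1* (r = 0.73), *Fn1* (fibronectin) for *Abcb1a* (r = 0.78) and *Aox1* for *Slco1a4* (r = 0.70). It was *Plin4* for *Mfsd2a* (r = 0.77) and *Tsc22d3* for *Slc2a1* (r = 0.70), and *Fndc3a* for *Tjp1* (r = 0.85), *Tead1* for *Ocln* (r = 0.66) and *Tril* for *Cldn5* (r = 0.66). *Tsc22d3* (GILZ) is a textbook target of glucocorticoids.

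**Figure D5:**
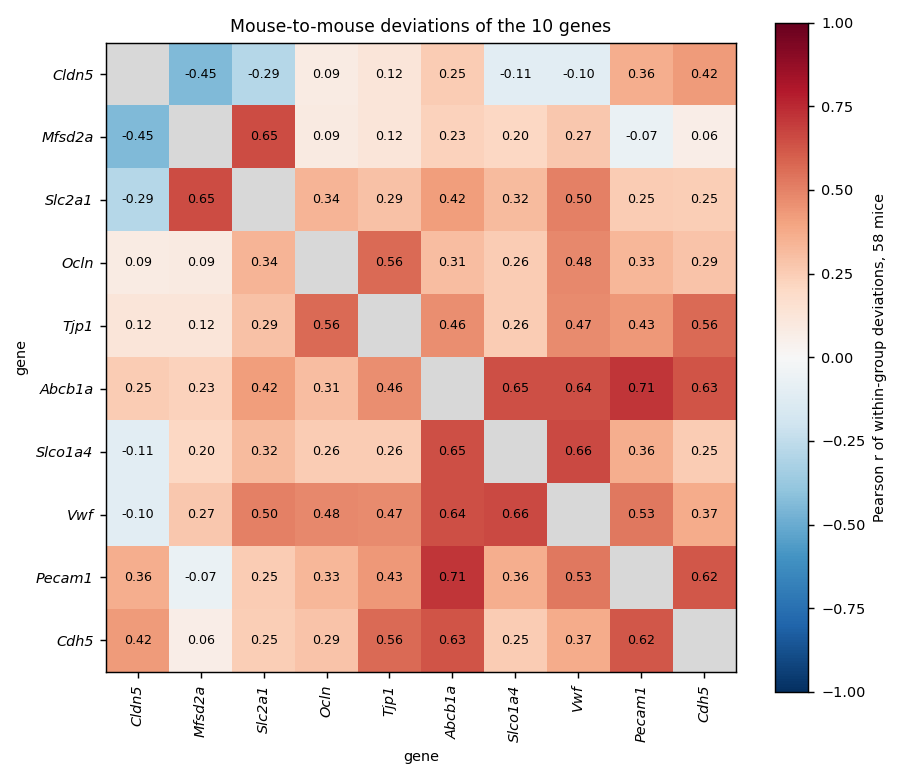
Pearson correlation over 58 mice between the within-group deviations of log2(CPM + 1) of the 10 genes, from blue (negative) to red (positive). Most pairs are positive, with *Abcb1a* and *Pecam1* highest at 0.71, *Slc2a1* and *Mfsd2a* pair at 0.65, and *Cldn5* is negative to *Mfsd2a* at -0.45.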

How the data were processed

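Read counts per gene were taken from 1 table of 58 mice. The deposited counts are raw whole numbers, which the authors made with Subread and featureCounts (v1.5.0), per the labels on mm10. The annotation and strand setting are not given in the sources used here. After 2 blank lines were removed, 15171 genes remained, and 23 symbols that were missing or had turned into numbers or dates were replaced by the RefSeq symbols of their identifiers. Genes were placed and measured with GENCODE vM21 (GRCm38) and promoters came from RefSeq. Counts were scaled to CPM with TMM factors (0.954 to 1.04), filtered with filterByExpr and tested with edgeR's quasi-likelihood test (v4.0.16, R 4.3.3), adjusting p over all genes at 0.05 (Benjamini-Hochberg). Comparisons within groups used only those groups, and averages and sex comparisons all 58 mice. DESeq2 (v1.42.0) was an alternative. The tests were tried on simulated data. Mice were numbered in the order of deposition. The labels name no litters or sequencing runs. In each isoform, the title numbers of the Abca1+/+ males lie apart from those of all other mice. A grouping that follows these numbers cannot be told apart from genotype and sex there. The p-values measure the spread between these mice.

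The 10 genes and the 15 other lists were chosen with earlier results of these data known. The lists' named genes are at most 4 per list with the smallest p in the average injury comparison. The genes most alike were ranked by r of within-group deviations. *Abca1* was named as the genotype check, *Abcb1b* as a close relative, and *Rn45s* and *Ttr* for library quality. Alternatives were DESeq2's size factors and Wald test, no filter, 1 CPM in 6 mice, thinning to 4421308 counts, sex as a covariate, a single fit of all mice, leaving out each mouse, and a pseudocount of 0.1 in place of 1. Chosen after seeing the data were a GC slope covariate, leaving out libraries that stood apart (choroid plexus markers averaging over 3 on the log2(CPM + 1) scale, *Rn45s* over 1%, and 3 single libraries), and the sex comparisons within genotypes and by *Abca1*. Some genes that the naming rule picked are not reported here.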

Additional observations from a re-analysis of the deposited data

Results flagged for a closer look

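In 4 of the 80 sets of values made by the 10 genes in the 8 groups, 1 mouse lay apart from the rest of its group by Dixon's criterion, which chance alone meets in about 1 of 20 groups. For 3 of them it was the same female, TBI mouse 8 of E3/Abca1+/+. It had 70.4 CPM of *Abcb1a* against 36.2 to 44.0 CPM in the other 7 mice, 83.8 CPM of *Slco1a4* against 44.5 to 57.9 CPM, and 25.9 CPM of *Cdh5* against 12.1 to 15.1 CPM. The same library had the highest level of fibroblast and meningeal markers of all 58. The fourth was sham mouse 1 of E4/Abca1+/+, a male with 18.3 CPM of *Mfsd2a* against 24.3 to 28.1 CPM in the other 6 mice.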

How the results depend on the processing

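No paired analysis was possible because each mouse gave 1 library and belonged to 1 group, and the labels pair no mice between groups. Among 990 alternatives to tests of single genes, 909 kept the direction and the side of the threshold, 27 lost the call, 10 gained it and 44 changed sign, 0 of them for a gene called as reported. The causes were not tested. For TBI against sham, the genes called were 2 in E3/Abca1+/+ mice (4 with sex as a covariate, 0 without the library highest in fibroblast markers), 2 in E3/Abca1+/- mice (4 with sex as a covariate, 1 in a single fit of all mice, 0 with the GC slope as a covariate and 0 without libraries high in *Rn45s*), 0 in E4/Abca1+/+ mice (1 with the GC slope), 4 in E4/Abca1+/- mice (0 without libraries with choroid plexus markers) and 7 on average (4 without libraries high in *Rn45s*). Leaving out each mouse gave 0 to 3, 0 to 4, 0 to 1 and 3 to 5 genes in the 4 genotypes, in this order, and 6 to 7 on average. For *Abca1* copies within isoform and injury status, the 2 calls became 0 after thinning and without libraries with choroid plexus markers, and 1 in a single fit, without the sham library highest in microglia markers and without libraries high in *Rn45s*. For sex within genotypes, the 4 calls became 10 with DESeq2's Wald test, 2 without libraries with choroid plexus markers and 0 without libraries high in *Rn45s*. The lowest value of any of the 10 genes in a mouse was 42 reads. The 44 changes of sign lay in 19 results with an adjusted p of at least 0.454 as reported, and their log2 values follow. For TBI on average, *Mfsd2a* (0.002 as reported) was at -0.0113 with DESeq2's size factors, -0.0127 with its Wald test, -0.0293 thinned, -0.00136 with sex and -0.000312 with the GC slope as a covariate, and -0.0006, -0.0149, -0.000545, -0.0222 and -0.0584 without the library lowest in hippocampal markers, that highest in fibroblast markers, the sham library highest in microglia markers, the libraries with choroid plexus markers and those high in *Rn45s*. Without libraries high in *Rn45s*, TBI in E3/Abca1+/- mice gave -0.0735 for *Slc2a1*, -0.124 for *Mfsd2a*, -0.122 for *Pecam1* and -0.00779 for *Cdh5*, TBI in E4/Abca1+/+ mice 0.0152 for *Ocln* and 0.0181 for *Mfsd2a*, *Abca1* copies 0.0352 for *Cldn5*, 0.0108 for *Ocln*, -0.00599 for *Slc2a1* and -0.0401 for *Mfsd2a*, and isoform 0.0124 for *Pecam1* and 0.0636 for *Vwf*. With the GC slope, *Abca1* copies gave 0.00265 for *Ocln*, -0.0237 for *Slc2a1*, -0.0072 for *Mfsd2a* and 0.0124 for *Slco1a4*, isoform 0.00228 for *Abcb1a* and 0.0468 for *Cdh5*, and TBI in E4/Abca1+/- mice -0.0162 for *Slc2a1*. Thinning gave 0.0235 for *Slco1a4* by *Abca1* copies, 0.0436 for *Pecam1* by isoform, 0.0169 for *Mfsd2a* after TBI in E4/Abca1+/+ and -0.017 for *Slc2a1* in E4/Abca1+/- mice. Without the library highest in fibroblast markers, *Slco1a4* was at 0.0149 by *Abca1* copies, *Abcb1a*, *Pecam1* and *Cdh5* at 0.01, 0.00519 and 0.0262 by isoform, and *Pecam1* at -0.00821 after TBI in E3/Abca1+/+ mice. Without libraries with choroid plexus markers, *Abcb1a* and *Cdh5* were at 0.00512 and 0.0324 by isoform, *Ocln* at 0.0321 after TBI in E4/Abca1+/+ and *Slc2a1* at -0.0538 in E4/Abca1+/- mice. In E4/Abca1+/- mice TBI also gave -0.00564 for *Slc2a1* without the library lowest in hippocampal markers and 0.00812 for *Mfsd2a* in a single fit.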
